A study of Mus musculus with 32 samples.

Results

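The effect of losing ACSS2 on the transcriptome was compared between 2 brain regions of the same saline-exposed mice. The 16 libraries used were all those of the chronic prenatal saline exposure groups, out of 32 in the study, and came from 8 of its 16 mice. For each gene the difference between knockout (KO) and wild type (WT) in the cerebellar vermis was set against the same difference in the dorsal hippocampus, with the mouse as a block. This contrast is called the region difference below. It is above 0 where the knockout value relative to wild type was higher in the vermis than in the hippocampus.

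All mice were C57BL/6J offspring of dams that received 1 intraperitoneal injection of saline a day during pregnancy, beginning after the first of 5 nights of mating. They were weaned at postnatal day 21 and killed between days 40 and 50. Both regions of each brain were dissected from frozen tissue, which gave 4 groups of 4 libraries (2 males and 2 females each): WT hippocampus, KO hippocampus, WT vermis and KO vermis. Another 16 libraries, from mice exposed to ethanol at 3 g per kg in the same schedule, were used as a separate set of animals. They were joined with the saline libraries only in a test between the exposures and in alternative fits. How the knockout allele was made, and whether mice shared a litter, is not given in the sources used here.

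ACSS2 is the nucleocytosolic acetyl-CoA synthetase: it joins acetate to coenzyme A, and in neurons part of the enzyme sits at chromatin, where its product can be used to acetylate histones. Cytosolic ribosomal proteins and the nuclear-encoded subunits of the respiratory chain, the gene groups that the results below turn on, are made from short, abundant messages in nearly every cell. The ribosomal proteins build the 2 ribosomal subunits, and the respiratory subunits assemble with mitochondrially encoded partners into the complexes that carry out oxidative phosphorylation.

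The libraries held between 49085258 and 96664509 counts in genes, so that 1 CPM (a count scaled to library size) stood on 49.8 to 95.8 counts. They shared 1 sequencing lane, and their sex-specific genes matched the labelled sex in 16 of 16. Markers fitted the dissections: the mean log2 CPM of 20 Purkinje cell genes was 8.09 to 8.37 in vermis libraries and 3.95 to 5.58 in hippocampal ones. A few libraries stood apart. The WT hippocampus of mouse M3 had the steepest relation of expression to gene length (Spearman correlation of its deviation from the hippocampal mean with exonic length, -0.447), and 5.51% of the counts of the WT vermis of mouse F1 came from 1 ribosomal RNA gene, Rn18s-rs5. Choroid plexus genes ranged from -0.21 to 4.58 in mean log2 CPM over the 8 hippocampal libraries, with low and high libraries in both genotypes. Counts of called genes are also given below with single mice left out, where WT mouse F1 enters only through the ranges over mice. Medians of the marker lists are given with all libraries only.

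Acss2 itself was read first, since it checks the labels and is the one gene that passed as lower in both regions after adjustment. In the hippocampus its normalised counts were 56.9, 52.7, 50.3 and 58.1 CPM in WT mice M1, M3, F1 and F3 and 13.8, 11.3, 12.9 and 13.4 CPM in the KO mice of the same labels. In the vermis they were 60.4, 56.8, 66.7 and 63.7 CPM in WT and 19.0, 16.9, 17.0 and 17.5 CPM in KO mice. Every KO library lay below every WT library of its region, and reads remained in all 8 KO libraries. The log2 change was -2.08 in the hippocampus and -1.81 in the vermis (log2 CPM, exact permutation test over 70 splits of the mice, two-sided p = 0.0286 for each, the smallest this design allows). The 2 changes differed by 0.27, which did not pass the same test (exact permutation p = 0.0857).

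Of 23871 genes tested, 600 (2.51%) had a region difference at an adjusted p under 0.05 (edgeR's quasi-likelihood test with Benjamini-Hochberg adjustment, 4 KO and 4 WT mice). Nearly all lay on 1 side: 573 genes (2.4%) were above 0 and 27 (0.113%) below. The median of the 573 was 0.90 on the log2 scale, made of a median of -0.27 in the hippocampus and 0.63 in the vermis. Selecting on a difference favours genes with opposite signs, and 590 of the 600 had them. The larger of the 2 effects was that of the vermis in 556 of the 600 genes. In bulk tissue a change in the number of cells of a type and a change in RNA per cell cannot be told apart, here or below.

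**Figure D1:**
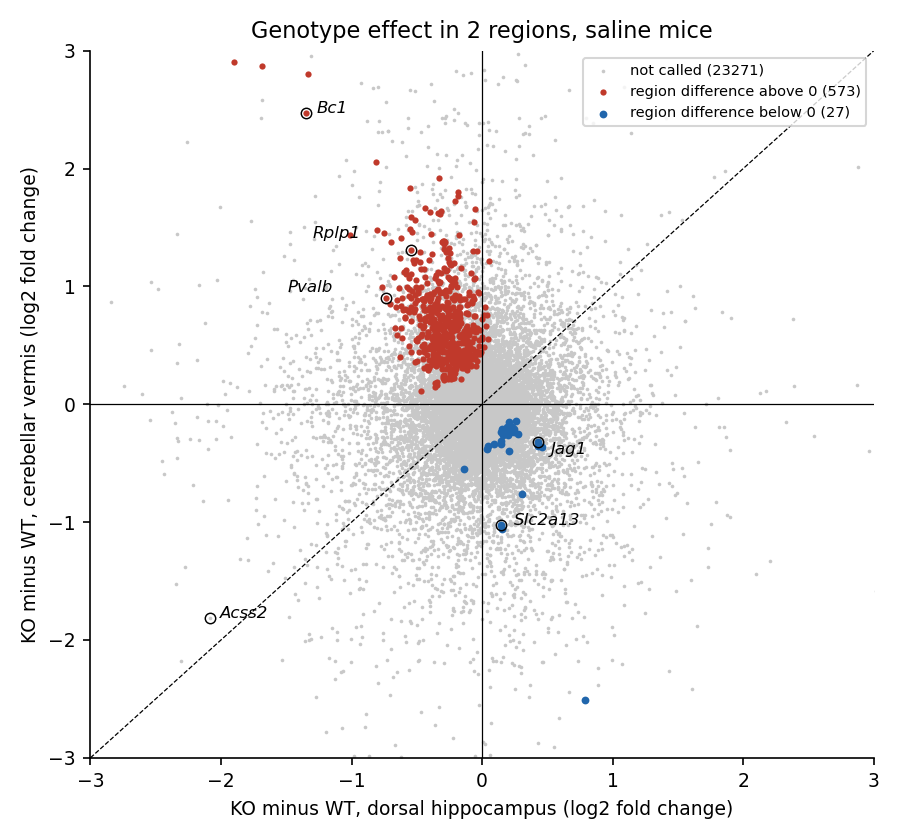
The log2 fold change of KO against WT in the dorsal hippocampus (x axis) and in the cerebellar vermis (y axis), 1 point per gene. The 573 genes with a region difference above 0 fill the upper left, and the 27 below 0 mostly the lower right. Acss2 lies close to the dashed line of equal effects. Another 89 genes, none of them called, lie beyond the axes.

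Taken alone, the 2 regions differed in how many genes passed. In the hippocampus 2 genes (0.00838%) passed, Acss2 and Bc1, both lower in KO mice, while 1557 genes had an unadjusted p under 0.05 and DESeq2 called 80 (19 higher and 61 lower). Without a filter on low counts edgeR called 147 higher and 405 lower. In the vermis 998 genes (4.18%) rose and 276 (1.16%) fell in KO mice. That the effects themselves differed between the regions rests on the region difference and not on these counts. Scaling the 2 regions separately gave 1165 vermis genes up and 127 down, so the share of lower vermis calls depended on the scaling. Without WT mouse M3 the vermis counts were 713 up and 83 down, and without the filter 1330 up and 939 down. Across all genes tested, the 2 regions' fold changes were unrelated (Pearson r = -0.0070, Spearman rho = -0.032), as a description over genes that are not independent replicates.

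Genes with opposite effects were counted as those called for the region difference, with opposite signs and an unadjusted p under 0.05 in each region. There were 299 of them (1.25% of genes tested), of which 288 were lower in the KO hippocampus and higher in the KO vermis and 11 the reverse. Without the requirement of a called region difference, 396 genes passed an unadjusted p under 0.05 in each region with opposite signs, 332 and 64 in the same order. By comparison 115 genes (0.482%) passed it with the same sign, 56 higher and 59 lower in both regions, and none of the 115 was called for the region difference. Taken singly, 1557 genes had an unadjusted p under 0.05 in the hippocampus and 4460 in the vermis. Whether the 115 exceed the number that would pass in both by chance was not tested. The count of opposite genes depended on single mice: it was 159 without WT mouse M3, 192 without WT mouse F3, 183 without KO mouse F3 and, at the highest, 417 without WT mouse M1. Without both WT M3 and WT F3 it was 83, and the region difference was called for 268 genes, all of them above 0.

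The sequences below belong to genes of the largest group, those low in the KO hippocampus and high in the KO vermis. They are shown because these genes moved together, and each covers 150 bases before the annotated transcription start and 10 after it (RefSeq, build GRCm38.p6; the counts were made on GRCm39). Capitals mark 4 short motifs found on either strand: the ETS core CCGGAAG, the NRF-1 core GCATGCGC, the YY1 core AAGATGGC and the TATA box TATAAA. They also mark the first 5 transcribed bases where these are a C followed by pyrimidines, the terminal oligopyrimidine start typical of messages for the translation machinery. Rps27 had the smallest p after Rps12, and the other 4 were chosen, after the values were seen, as the ribosomal and respiratory genes of smallest p with an ETS core here.
Rps27, small ribosomal subunit (chr3:90213639-90213798, minus strand): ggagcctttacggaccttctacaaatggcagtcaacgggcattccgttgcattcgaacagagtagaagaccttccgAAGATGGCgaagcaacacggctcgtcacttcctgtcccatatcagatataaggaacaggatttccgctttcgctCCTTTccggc
Rpl37, large ribosomal subunit (chr15:5116463-5116622, plus strand): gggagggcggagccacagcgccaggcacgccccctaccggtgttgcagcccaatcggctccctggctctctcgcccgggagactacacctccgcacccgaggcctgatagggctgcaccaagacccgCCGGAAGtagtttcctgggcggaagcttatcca
Rps10, small ribosomal subunit (chr17:27635235-27635394, minus strand): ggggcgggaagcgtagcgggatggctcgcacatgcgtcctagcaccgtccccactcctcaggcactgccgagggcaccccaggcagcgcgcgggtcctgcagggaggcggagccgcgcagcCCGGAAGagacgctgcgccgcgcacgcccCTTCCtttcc
Uqcr11, respiratory complex III (chr10:80406812-80406971, minus strand): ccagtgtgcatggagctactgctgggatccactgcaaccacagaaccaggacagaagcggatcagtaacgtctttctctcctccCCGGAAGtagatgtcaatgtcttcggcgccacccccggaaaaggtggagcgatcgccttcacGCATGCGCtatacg
Uqcrh, respiratory complex III (chr4:116075061-116075220, minus strand): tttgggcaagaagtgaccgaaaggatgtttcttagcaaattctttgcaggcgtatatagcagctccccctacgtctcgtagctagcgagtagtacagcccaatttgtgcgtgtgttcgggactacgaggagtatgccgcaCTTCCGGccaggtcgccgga
Rpl37 and Uqcrh carried the ETS core 23 and 10 bases before the start, Rps10 29 bases before it, and Uqcr11 66 bases before it, with an NRF-1 core that began 4 bases before the start.
The motifs were then counted in the table's full windows of 300 bases around the start. The ETS core was in 8.86% of all 32851 windows of the table, in 16.2% of the 13697 tested genes that matched a window by symbol, and in 102 of 317 matched genes called above 0 (32.2%). It was in 24 of 58 cytosolic ribosomal protein genes (41.4%) and 11 of 52 respiratory chain genes (21.2%). The YY1 core was in 33 of the 317 called genes (10.4%), against 4.37% of tested genes and 2.75% of all windows, and in 8 of 52 respiratory chain genes (15.4%). The oligopyrimidine start was in 13 of 58 ribosomal protein genes (22.4%) and 18 of the 317 (5.68%), against 3.15% of tested genes and 2.51% of all windows. Among called genes outside the ribosomal and respiratory lists its share was 2.59%. It was looked for only at the exact annotated start, so a gene whose start is annotated a few bases off was missed. The NRF-1 core (5.68% of called, 5.02% of tested genes, 2.71% of all windows) and the TATA box (9.15%, 9.95% and 13.6%) had shares in called genes close to those in tested genes, although the NRF-1 core was in 7 of 52 respiratory chain genes (13.5%). These shares describe windows of sequence, and binding was not measured.

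Cytosolic ribosomal protein genes made up the most complete group. Of 78 measured, 64 were called above 0 for the region difference and none below, with a median of 0.96 against -0.05 over all genes tested. In the vermis 77 of the 78 rose in KO mice (median 0.70). In the hippocampus 67 had lower values in KO mice and 38 had an unadjusted p under 0.05 in that direction, none in the other (median -0.23), but none passed there after adjustment. Over all 23871 genes tested, 11921 had lower values there and 805 had an unadjusted p under 0.05 in that direction. The small subunit had 27 of 31 genes called and the large subunit 37 of 47.

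Averaged over the 78 genes, each mouse showed the pattern of its genotype. In the 4 WT mice M1, M3, F1 and F3 the vermis lay below the hippocampus, by -0.15, -0.55, -0.20 and -0.40 in mean log2 CPM. In the KO mice of the same labels it lay above, by 0.57, 0.43, 0.70 and 0.63. The 2 sets of mice did not overlap. In the vermis alone the mean level was 5.92 to 5.96 in WT and 6.54 to 6.71 in KO libraries. In the hippocampus it was 6.11 to 6.50 in WT and 5.97 to 6.23 in KO libraries, and there the groups overlapped through KO mouse M3. As a share of all counts, ribosomal protein genes took 0.551 to 0.579% of WT vermis libraries and 0.840 to 0.926% of KO vermis libraries. Without both WT M3 and WT F3 the hippocampal median of the list was -0.08, the vermis median 0.70 and the region difference 0.85, with 54 genes called.

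**Figure D2:**
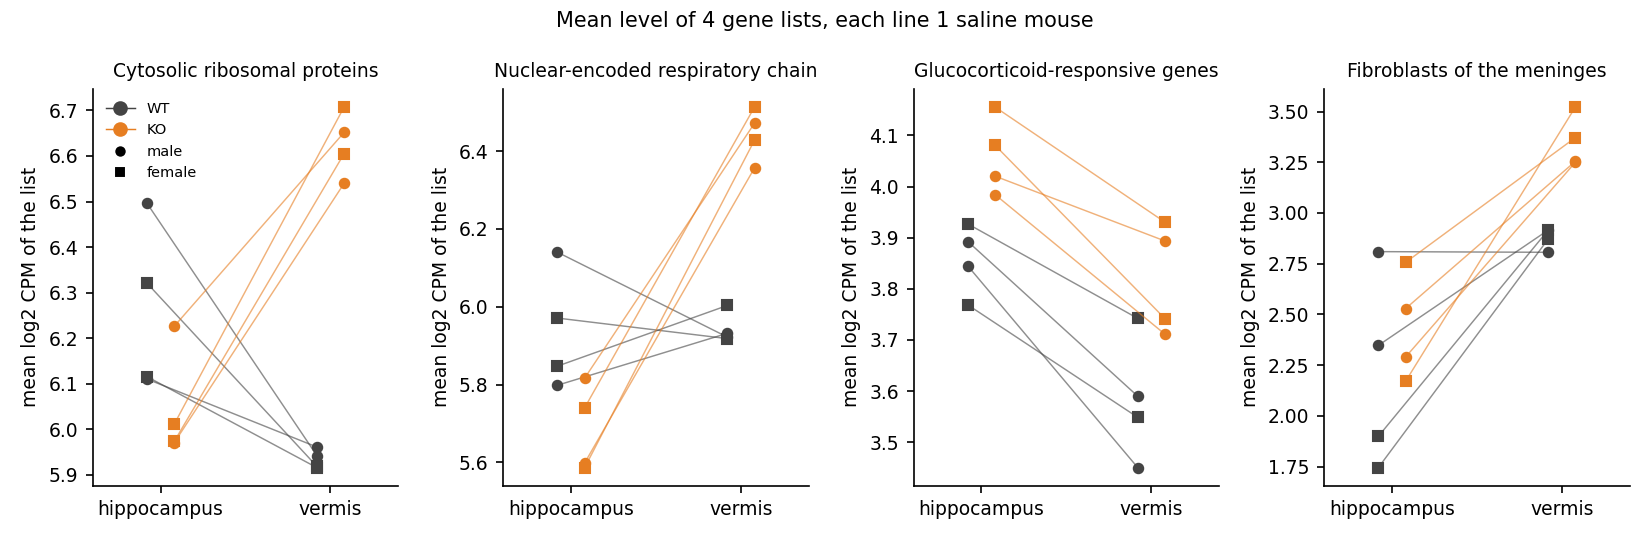
Mean log2 CPM of 4 gene lists in the hippocampus and vermis of the 8 saline mice (WT grey, KO orange, circles male, squares female), with 1 line joining the 2 regions of a mouse. The lines of WT and KO mice cross for ribosomal proteins (WT 5.92 to 5.96 and KO 6.54 to 6.71 in the vermis) and respiratory chain genes, and run side by side for glucocorticoid-responsive genes.

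Rps12, a small subunit protein, had the smallest p. Its hippocampal counts were 48.5, 62.1, 51.6 and 61.5 CPM in WT M1, M3, F1 and F3 and 40.8, 44.2, 39.6 and 37.3 CPM in the matching KO mice. Its vermis counts were 34.4, 38.9, 34.5 and 35.6 CPM in WT and 74.1, 81.7, 83.4 and 79.15 CPM in KO mice. KO libraries lay wholly below WT in the hippocampus and wholly above in the vermis. The region difference was 1.61 (SE 0.09, adjusted p = 2.97e-05), from a change of -0.47 in the hippocampus (adjusted p = 0.478) and 1.15 in the vermis (adjusted p = 9.41e-07).

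Rps27, whose promoter is printed above, encodes another small subunit protein. In the hippocampus it stood at 40.1, 50.8, 39.8 and 44.7 CPM in WT and 31.0, 32.8, 28.1 and 31.9 CPM in KO mice. In the vermis it stood at 30.3, 30.8, 28.1 and 29.7 CPM in WT and 56.9, 64.1, 63.9 and 61.35 CPM in KO mice. Neither pair of groups overlapped, and the region difference was 1.55 (SE 0.10, adjusted p = 3.64e-05). Rplp1, an acidic protein of the ribosomal stalk, had the largest region difference of the list, 1.84 (SE 0.12, adjusted p = 3.64e-05). It had 103.9 to 156.1 CPM in WT and 80.4 to 102.3 CPM in KO hippocampus, and rose from 61.3 to 66.0 CPM in WT to 149.9 to 163.5 CPM in KO vermis. Its hippocampal change did not pass by itself (adjusted p = 0.555).

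Rps16 and Rpl37 followed, at 1.45 and 1.33. Their hippocampal values in KO mice were lower by 0.35 and 0.40 on the log2 scale, without passing the adjusted test. The list was not uniform. Rpl17, Rpl10a and Rpl13a had hippocampal changes of -0.07, 0.01 and -0.10 beside vermis changes of 0.92, 0.76 and 0.93, so their region differences of 0.98, 0.74 and 1.02 came from the vermis. Rpl4 and Rpl3, picked out after their values were seen because they had the 2 lowest values of the list, had region differences of -0.01 and 0.10 (adjusted p = 0.982 and 0.793).

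The nuclear-encoded respiratory chain followed the same course. Of 79 genes, 55 were called above 0 and none below, with a median region difference of 0.76. In the vermis 65 rose in KO mice (median 0.47), and in the hippocampus 67 had lower values (median -0.29), 44 of them at an unadjusted p under 0.05. All 44 also counted among the opposite genes. Over all 23871 genes tested, 805 were lower in the KO hippocampus at that p, and 299 counted as opposite. Grouped by gene symbol, the calls spread over complex I (NADH dehydrogenase) with 26 of 38 genes, complex II with 3 of 4, complex III with 6 of 9, complex IV (cytochrome c oxidase) with 9 of 11, and the ATP synthase with 11 of 17. The mean level of the list was 5.92 to 6.00 log2 CPM in WT vermis and 6.36 to 6.51 in KO vermis, without overlap. In the hippocampus it was 5.80 to 6.14 in WT and 5.59 to 5.82 in KO libraries, which overlapped.

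Cox7a2, a small subunit of cytochrome c oxidase, had the smallest p of the list. It stood at 42.7, 55.4, 51.0 and 56.6 CPM in WT hippocampus (M1, M3, F1, F3) and 34.7, 37.2, 37.2 and 31.6 CPM in KO hippocampus. In the vermis it stood at 42.7, 47.5, 49.1 and 42.9 CPM in WT and 79.2, 85.4, 90.1 and 86.8 CPM in KO mice. The groups did not overlap in either region, and the region difference was 1.45 (SE 0.11, adjusted p = 6.73e-05). Ndufc2, an accessory subunit of complex I, went from 41.6 to 57.9 CPM in WT to 31.4 to 36.4 CPM in KO hippocampus and from 45.4 to 52.3 CPM to 76.1 to 88.3 CPM in the vermis. Its region difference was 1.32 (SE 0.10, adjusted p = 7.69e-05).

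Cox6c of complex IV (1.39), Ndufa4 (1.31, counted above by its symbol with complex I, although the protein is known as part of complex IV) and Atp5mg of the ATP synthase (1.504) had the same form, with hippocampal changes of -0.59, -0.59 and -0.61 and vermis changes of 0.80, 0.73 and 0.90. In the hippocampus none of the 3 passed after adjustment (adjusted p = 0.343 for each), although no KO library reached a WT library there. Ndufs1 and Sdha, the catalytic or core subunits of complexes I and II that lay lowest in the list, had region differences of -0.12 and -0.12 (adjusted p = 0.602 and 0.599) and were picked out after their values were seen.

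**Figure D3:**
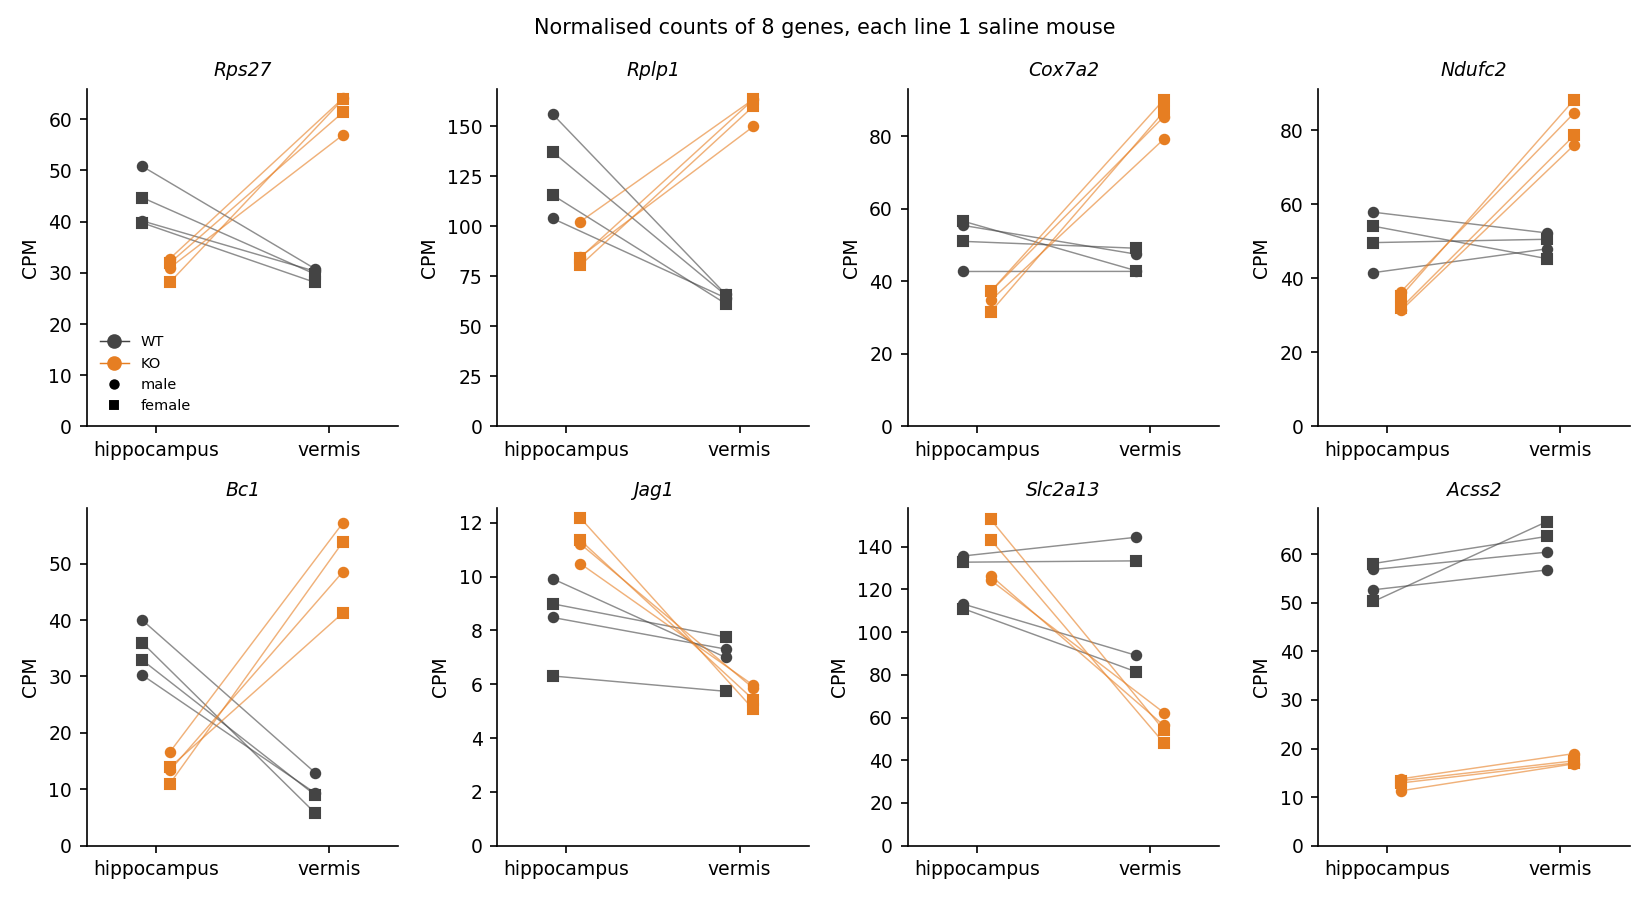
Normalised counts (CPM, axes from 0) of 8 genes in the hippocampus and vermis of the 8 saline mice, with 1 line joining the regions of a mouse. The WT and KO lines cross for Rps27, Rplp1, Cox7a2, Ndufc2 and Bc1, cross the other way for Jag1, and run parallel for Acss2 with KO libraries at 11.3 to 19.0 CPM.

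Mitochondrial messages outside the nuclear-encoded chain moved less. Of 78 mitochondrial ribosomal protein genes, 19 were called above 0 (median 0.28), led by Mrpl20, whose region difference was 1.15 (SE 0.09, adjusted p = 7.89e-05). Among the 13 mitochondrially encoded messages 2 were called, mt-Co3 (0.90, adjusted p = 0.00235) and mt-Nd3 (0.49, adjusted p = 0.0491), and the median of the 13 was 0.22 (-0.01 with the offset for length described below). In the list of proteasome genes 10 of 48 were called (median 0.19), among them the core particle genes Psmb1, Psmb4 and Psmb5 at 0.76, 0.84 and 0.83. Translation initiation and elongation factors had 3 of 41 called, with a median of 0.03.

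A pair of small mitochondrial proteins met the rule for opposite genes outside these lists. Tomm7, part of the channel that imports proteins across the outer membrane, changed by -0.62 in the hippocampus and 0.83 in the vermis. Romo1, an inner membrane protein, changed by -0.58 and 0.80. Their region differences were 1.45 and 1.37 (adjusted p = 0.000401 and 0.000344), and KO and WT libraries overlapped in neither region for either gene. Zbed5, a gene derived from a transposase, had a region difference of 1.25 (SE 0.09, adjusted p = 6.73e-05) with 31.7 to 38.0 CPM in WT and 24.0 to 28.0 CPM in KO hippocampus. Its hippocampal change of -0.44 did not pass after adjustment.

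Bc1 was the one gene besides Acss2 that passed in the hippocampus, and the one that passed in both regions in opposite directions. It is a short cytoplasmic RNA of rodent neurons that binds translation factors and represses translation near synapses. The GENCODE M21 transcript is printed because it holds an A-rich stretch and the libraries were made by poly(A) selection; whether that bears on its counts was not tested. It is 168 bases long, and capitals mark its 40-base stretch richest in A (35 of 40 bases):
Bc1: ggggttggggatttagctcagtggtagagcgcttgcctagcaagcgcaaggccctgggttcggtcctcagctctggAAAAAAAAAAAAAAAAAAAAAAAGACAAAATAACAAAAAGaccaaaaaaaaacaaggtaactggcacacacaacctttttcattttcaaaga
In the hippocampus Bc1 stood at 30.25, 40.01, 36.01 and 32.92 CPM in WT M1, M3, F1 and F3 and at 16.6, 13.3, 13.9 and 10.98 CPM in the matching KO mice. In the vermis it stood at 9.31, 12.9, 5.75 and 8.95 CPM in WT and at 57.2, 48.6, 41.3 and 53.9 CPM in KO mice. The order of the genotypes was reversed between the regions, without overlap in either. The hippocampal change was -1.35 (SE 0.12, adjusted p = 0.00369), the vermis change 2.47 (SE 0.21, adjusted p = 0.00111), and the region difference 3.83 (SE 0.24, adjusted p = 9.27e-05).

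Most of the 573 genes were short. Their median exonic length was 1160 bases, against 3399 over all genes tested and 6488 in the 27 genes below 0. When genes were ordered by length and split into 10 bins, 161 of 2388 genes of the shortest bin and 171 of 2387 of the next were called above 0, and none of the longest bin, in which 10 genes were called below 0. The median knockout effect ran from 0.16 in the shortest to -0.08 in the longest bin in the vermis and from -0.03 to 0.02 in the hippocampus.

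**Figure D4:**
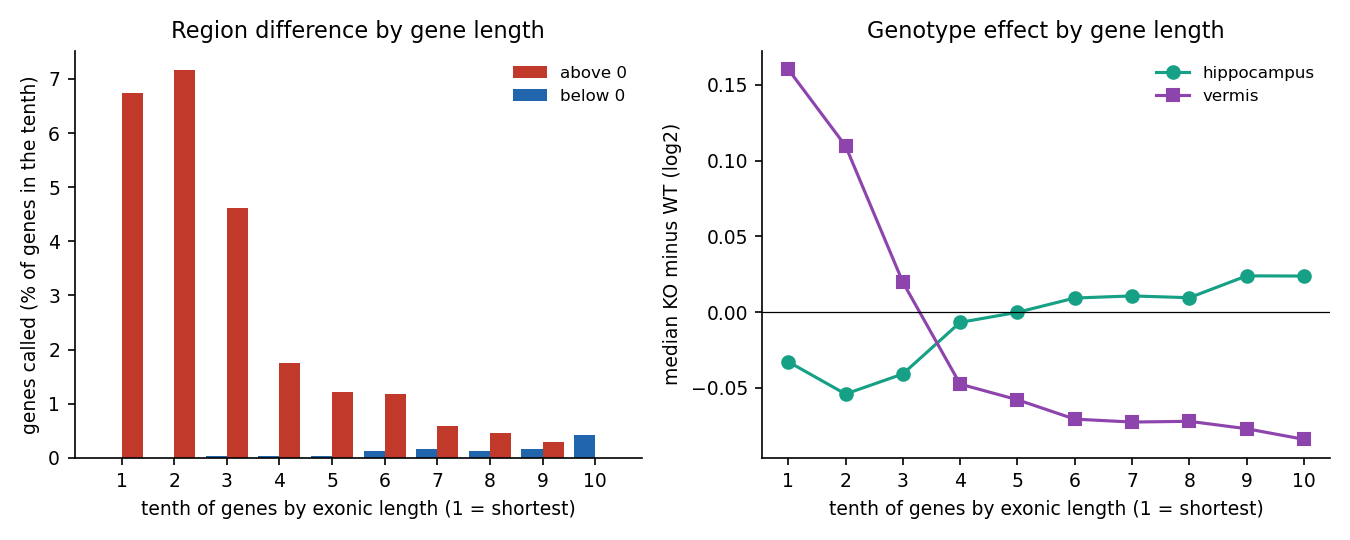
Left, the percentage of genes called above 0 (red) and below 0 (blue) for the region difference in each of 10 bins of genes by exonic length. Right, the median log2 change of KO against WT per bin in the hippocampus and the vermis. Calls above 0 gather in the 3 shortest bins (161, 171 and 110 genes), and the vermis median falls from 0.16 to -0.08.

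The relation to length was also seen within the lists. Over the 79 respiratory chain genes the Spearman correlation of exonic length with the region difference was -0.48, with the hippocampal change 0.55 and with the vermis change -0.43. Over the 78 ribosomal protein genes these were -0.26, 0.29 and -0.25. The 55 called respiratory genes had a median length of 1381 bases and the 24 others 2432.5 bases. Short genes outside the 6 lists of ribosomal, mitochondrial, translation factor and proteasome genes took part: of 267 under 1000 bases and at 1 CPM or more in both regions, 56 were called above 0 and none below, against 407 above and 23 below among all 13079 genes of at least 1 CPM in both regions. Among the 573 were also 138 pseudogenes, against 2339 among all 23871 genes tested. Of the 138, 44 had a symbol that begins with Rpl or Rps. Counts of such near-identical copies and of their parent genes cannot be told apart with confidence.

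The relation of expression to gene length moved with genotype in the vermis. The correlation of each library's deviation with gene length was 0.09 to 0.33 in the 4 WT and -0.32 to -0.15 in the 4 KO vermis libraries, without overlap, and -0.45 to 0.12 against -0.20 to 0.20 in the hippocampus. Its part in the results was measured in 1 way: with an offset for length fitted within each library, 455 genes were called, 437 above 0, among them 61 ribosomal protein genes (median 0.84) and 51 respiratory chain genes (median 0.66). In the same fit 248 genes counted as opposite.

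The 27 genes below 0 were mostly long, and their number was unstable. It was 126 by DESeq2, 79 without the mouse as a block, 13 without WT mouse M3 and 0 without both WT M3 and WT F3. Slc2a13, a proton-coupled myo-inositol transporter, had 144.4, 89.1, 81.4 and 133.4 CPM in WT vermis (M1, M3, F1, F3) and 62.3, 56.3, 48.1 and 54.1 CPM in KO vermis. In the hippocampus it ranged from 111.0 to 135.6 CPM in WT and 124.3 to 152.8 CPM in KO mice. The groups overlapped in the hippocampus only, and the region difference was -1.14 (SE 0.16, adjusted p = 0.0023), although the vermis change of -1.03 alone did not pass (adjusted p = 0.0643). Bach2, a transcriptional repressor of the BACH family, had 19.2 to 24.5 CPM in WT and 8.42 to 12.1 CPM in KO vermis, a change of -1.06 (adjusted p = 4.17e-05), and a hippocampal change of 0.15 (region difference -1.22, SE 0.20, adjusted p = 0.00724). Pappa, a protease that cleaves insulin-like growth factor binding proteins, had a region difference of -1.03 (SE 0.22, adjusted p = 0.0303) and a vermis change of -0.76 (adjusted p = 0.0277).

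Of the 27 genes, 11 met the rule for opposite genes, higher in the KO hippocampus and lower in the KO vermis. Jag1, a ligand of Notch receptors, had 9.92, 8.48, 6.31 and 8.99 CPM in WT and 10.5, 11.2, 12.2 and 11.35 CPM in KO hippocampus. In the vermis it had 6.99, 7.31, 5.74 and 7.75 CPM in WT and 5.96, 5.85, 5.06 and 5.43 CPM in KO mice. KO libraries lay above WT in the hippocampus and overlapped them in the vermis through WT mouse F1, and the region difference was -0.75 (SE 0.15, adjusted p = 0.0165). Recql5, a DNA helicase, was the one of the named opposite genes of this direction whose groups did not overlap in either region (0.22 in the hippocampus, -0.24 in the vermis, region difference -0.46, adjusted p = 0.0293). The kinase gene Stk38 (-0.42), the lipid kinase gene Pik3c2b (-0.46), Wdfy1 (-0.46), the galactosyltransferase gene B4galt5 (-0.35), Gsap (-0.48) and the peroxisomal acyltransferase gene Crot (-0.39) completed the named set. Osbpl3 (-0.53), Polr3e (-0.39), Pwwp3a (-0.41) and Otud7a (-0.41) were called without meeting that rule. Of the 24 genes of sterol synthesis, Insig1, which retains the sterol sensor in the endoplasmic reticulum, was the one called (-0.40, adjusted p = 0.0356). Over all genes 0.113% were called below 0.

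Shared effects were few. On the mean of both regions per mouse, 1 gene passed, Acss2 (0.00419% of genes tested, limma, log2 change -1.95, adjusted p = 2.64e-08), while 2434 had an unadjusted p under 0.05. With the replicate label as a block 22 genes passed, and a voom fit with the mouse as a random effect called 50. Next in order came Rpl17, Rpl10a, Otud7a and Rpl13a, each at an adjusted p of 0.0606. The 3 ribosomal protein genes among them had hippocampal changes between -0.10 and 0.01, so their mean followed the vermis. Otud7a, a deubiquitinase gene, was lower in KO mice in both regions (-0.14 in the hippocampus and -0.55 in the vermis). Its libraries overlapped in the hippocampus and not in the vermis, where they held 63.5 to 71.5 CPM in WT and 43.3 to 48.5 CPM in KO mice.

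Among the 115 genes with the same sign and an unadjusted p under 0.05 in each region, some came from lists for glucocorticoid-responsive genes and for cells of the meninges and vessel walls. The lists and these genes were looked at with earlier results in view, so the counts describe them only. Of 22 glucocorticoid-responsive genes, 6 were among the 115, all higher in KO mice, 7 rose in the vermis, none passed in the hippocampus after adjustment and none was called for the region difference. Over all 23871 genes 56 were higher in both regions by the same rule and 4.18% rose in the vermis. The list's median was 0.19 in the hippocampus and 0.21 in the vermis, against 0.00011 and -0.05 over all genes tested. Its mean level was 3.77 to 3.93 log2 CPM in WT and 3.98 to 4.16 in KO hippocampus, without overlap, and 3.45 to 3.74 against 3.71 to 3.93 in the vermis, with overlap.

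Tsc22d3, also called Gilz and a direct target of the glucocorticoid receptor, had 46.7 to 53.1 CPM in WT and 52.1 to 79.2 CPM in KO hippocampus and 72.8 to 84.3 against 90.9 to 97.8 CPM in the vermis. It changed by 0.29 in the hippocampus (unadjusted p = 0.0242) and 0.28 in the vermis (adjusted p = 0.00556), so its region difference was -0.00044. Nfkbia, the inhibitor of NF-kappaB, changed by 0.18 (unadjusted p = 0.035) and 0.25 (adjusted p = 0.0402). Sgk1, a serum- and glucocorticoid-induced kinase, changed by 0.35 and 0.28, and its groups overlapped in both regions. In the ethanol-exposed mice the list's medians were -0.33 in the hippocampus and -0.45 in the vermis, of the opposite sign.

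For fibroblasts of the meninges 8 of 14 genes rose in the KO vermis (median 0.50) and 3 were among the 115 (median in the hippocampus 0.22). In the hippocampus 9 of the 14 had higher and 5 lower values in KO mice. Their mean level overlapped there, at 1.74 to 2.81 log2 CPM in WT and 2.17 to 2.76 in KO libraries. In the vermis it was 2.81 to 2.92 against 3.25 to 3.52, without overlap. The collagen genes Col1a1 and Col3a1, and no other gene of the list, had non-overlapping groups in both regions. The share of all genes tested with such groups was not counted. Col1a1 had 4.65 to 7.31 CPM in WT and 7.97 to 12.8 CPM in KO hippocampus and 11.6 to 13.3 against 16.6 to 19.9 CPM in the vermis. Col1a1 changed by 0.65 in the hippocampus (adjusted p = 0.646) and 0.49 in the vermis (adjusted p = 0.00147), and Col3a1 by 0.73 (adjusted p = 0.682) and 0.78 (adjusted p = 0.000114). For pericytes and vascular smooth muscle the median was 0.38 in the hippocampus and 0.13 in the vermis. In the vermis 2 of 13 genes were called, Vtn (0.29) and Tagln (0.59), where 4.18% of all genes rose. In the hippocampus 8 of 13 were higher at an unadjusted p under 0.05, against 752 of all 23871 genes. The list's mean level did not overlap in either region: it was 2.67 to 2.86 log2 CPM in WT and 3.04 to 3.21 in KO hippocampus, and 2.96 to 3.03 against 3.07 to 3.27 in the vermis. How much of the meninges each dissection kept was not measured.

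Several lists close to the biochemistry of ACSS2 held no gene called for the region difference. Over all genes 2.51% were called, so at that share lists of this size would hold few calls or none. None of 21 genes of acetyl-CoA and acetate metabolism, a list without Acss2, was called in either region or between them (median region difference -0.07). Of 31 writers, erasers and readers of histone acetylation none was called for the region difference, and 3 fell in the KO vermis: the deacetylase genes Hdac10 (-0.42), Hdac4 (-0.28) and Sirt7 (-0.28), against 1.16% of all genes that fell there. Only 3 of the 31 had a region difference above 0, against 10050 of 23871 genes (median -0.11, against -0.05 over all genes). The list's median length was 5331 bases. The bin of genes from 5160 to 6461 bases had a median of -0.08, and that from 6462 to 8780 bases -0.10. The part of gene length in the values of this list was not tested. The list's mean level in the vermis minus that in the hippocampus was 0.12 to 0.20 log2 CPM in WT and -0.05 to 0.09 in KO mice, without overlap. GABA-A receptor subunits, NMDA and AMPA receptor subunits, synaptic vesicle release genes and voltage-gated channels, 121 genes in all, had no call for the region difference. Their medians were -0.09, -0.09, -0.05 and -0.10, and their median lengths 5916, 6174, 6791 and 7944 bases. Markers of neuron classes gave 1 gene, Pvalb, listed for 3 of them: it is a calcium buffer of Purkinje cells and of inhibitory interneurons. Pvalb rose in the vermis from 224.3 to 271.6 CPM in WT to 397.9 to 531.8 CPM in KO mice. In the hippocampus its KO values overlapped WT (10.4 to 18.0 against 15.98 to 35.1 CPM), and its region difference was 1.60 (SE 0.17, adjusted p = 0.000355). No other gene of the 20 on the Purkinje cell list was called for the region difference. Some marker lists had large medians without any gene called for the region difference. The median was -0.75 for 13 dentate granule neuron genes (0.39 in the hippocampus), 0.29 for 18 cerebellar granule neuron genes, and 0.94 for 17 choroid plexus genes (-1.19 in the hippocampus, where the libraries spread widely within each genotype). It was 0.55 for 16 ependymal genes (-1.09 in the hippocampus) and 0.48 for 5 blood cell genes, all 5 of them with higher values in KO mice in both regions (median 0.46 in the hippocampus and 1.49 in the vermis, none called). The mean level of the blood cell genes was 5.18 to 6.49 log2 CPM in WT and 5.64 to 8.93 in KO vermis, with overlap. Their part in the results above was not tested. Of 19 microglial genes Tyrobp was called (1.16, SE 0.26, adjusted p = 0.0413), where 2.4% of all genes were called above 0.

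The ethanol-exposed mice, which shared no animal with the saline mice, gave the same contrast in other animals. There 334 genes (1.4%) were called above 0 and 19 (0.0796%) below. Of the 573 genes above 0 in saline mice, 571 had a region difference above 0 in ethanol mice and 293 were called there. Of the 27 below 0, 15 were below 0 in ethanol mice and none was called. The 11 opposite genes of this direction had a median of 0.02 there, and 4 of them kept their sign. In the other direction 287 of the 288 opposite genes kept it. Over all 23871 genes tested, 13465 had region differences of the same sign in both exposures. Jag1 and Slc2a13 had region differences above 0 in ethanol mice (0.57 and 0.19), and Bach2 and Pappa below 0 (-0.22 and -0.20). In the edgeR fit of all 32 libraries no gene passed for a change of the region difference between the exposures, while 1824 had an unadjusted p under 0.05.

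**Figure D5:**
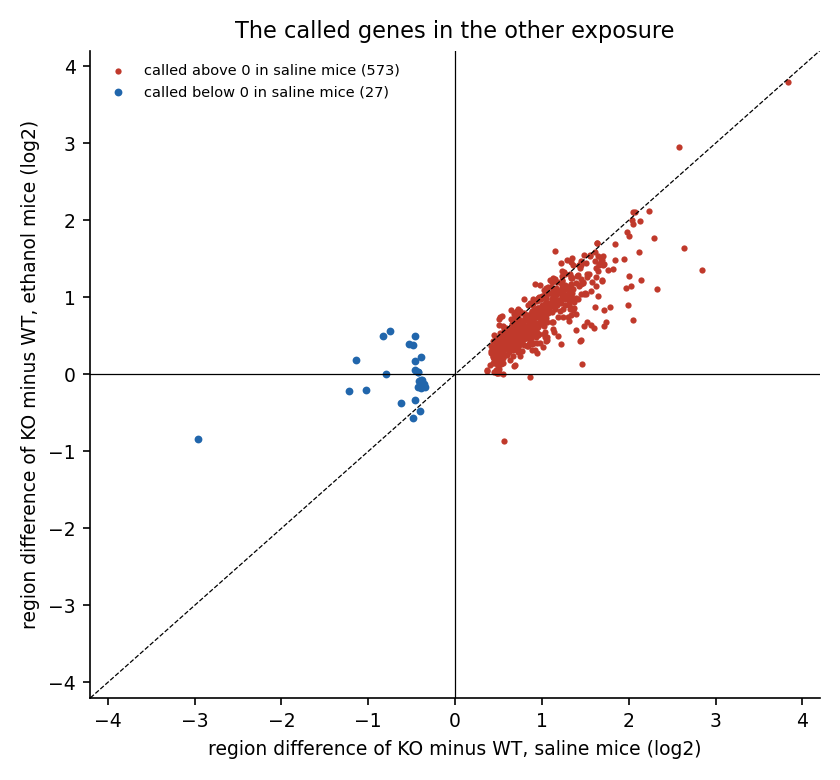
The region difference in saline mice (x axis) and in ethanol-exposed mice (y axis), both in log2, for the 573 and 27 genes called in saline mice. Of the red points 571 lie above 0 on the y axis, while the blue points scatter around it. The dashed line marks equal values, and 3 called genes lie beyond the axes.

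The 2 sides of the contrast are given next for these mice, and a change of either side between the exposures was not tested. Ribosomal protein genes had a median region difference of 0.81 in ethanol mice (57 of 78 called), made of 0.78 in the vermis and -0.0023 in the hippocampus. Respiratory chain genes had 0.53 (43 of 79 called), made of 0.48 in the vermis and -0.04 in the hippocampus. Over the 573 genes the ethanol medians were 0.66 in the vermis and -0.06 in the hippocampus, beside 0.63 and -0.27 in saline mice. These genes were selected on the saline contrast, which favours larger values in saline mice. Rps12 had a region difference of 1.46 in ethanol mice, with -0.14 in the hippocampus and 1.34 in the vermis. Cox7a2 had -0.32 in the hippocampus and 0.91 in the vermis (region difference 1.23). Bc1 had 3.79 in ethanol mice, with -0.79 in the hippocampus and 3.05 in the vermis. Across all genes tested the 2 exposures' region differences were weakly related (Pearson r = 0.11, Spearman rho = 0.10), as a description over genes.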

How the data were processed

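Poly(A) RNA was isolated from 10 ng of total RNA per library. The deposited values are counts per gene, not normalised; per the submitters' processing notes, the workflow names cutadapt 5.0 besides bcl2fastq, DESeq2, the counter featureCounts 2.0.6, the aligner STAR 2.7.10a and build GRCm39; their settings are not given in the sources used here. Of counts from 1 to 20, at least 85.1% were even in every library, so both mates of a pair appear to have been counted and counting error is understated by the raw numbers. Total counts are given in the report.

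Of 56415 genes, 23871 passed edgeR's filterByExpr. The region difference was fitted with edgeR 4.0.16 (R 4.3.3): TMM scaling, robust quasi-likelihood F-test, the mouse as a block and 6 residual degrees of freedom. Each region was fitted on its 8 libraries with sex as a covariate, and the mean of both regions with limma 3.58.1 on log2 CPM (prior count 2). Adjusted p-values are Benjamini-Hochberg over all genes tested, called at 0.05. The pairs come from the design, since 1 mouse gave both regions; within-mouse correlations of deviations were 0.099 to 0.397. No 2 libraries of a group were copies (24 pairs, lowest chi-square per degree of freedom 8.23). The fit was tested on simulated data, where the share of false calls was above the nominal level. Counts of called genes may therefore be too high, and a call is less certain than its adjusted p. DESeq2 1.42.0 was an alternative. Figures used Python 3.11.15.

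Named genes were those of smallest p among called genes of at least 1 CPM, up to 12 per direction and 8 opposite genes per direction, the leading 5 for the shared effect and up to 4 members per list; names outside this rule were chosen after their values were seen. Members and lists were chosen with earlier results of these data known. Promoter windows come from RefSeq (GRCm38.p6) and matched 13697 genes by symbol. Alternatives are listed in the closing section.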

Additional observations from a re-analysis of the deposited data

Results flagged for a closer look

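In 188 groups of 4 libraries the highest or lowest value was compared with the other 3, and 8 stood apart by more than Dixon's 95% critical value, where chance gives about 1 in 20. In the WT hippocampus, mouse M3 had a correlation of its deviation with gene length of -0.447, against 0.028 to 0.12 in the others. In the KO hippocampus, mouse M3 had -0.202, against 0.15 to 0.20, and the highest mean level of ribosomal protein genes, 6.23 log2 CPM against 5.97 to 6.01. In the WT vermis, mouse F1 had 5.51% of its counts in the most abundant gene, against 1.12 to 1.20%. The same library had 3.43% of its counts in mitochondrially encoded genes, against 4.73 to 4.85%, and the highest mean level of respiratory chain genes, 6.00 log2 CPM against 5.92 to 5.93. Respiratory chain genes took 0.713% of counts in the WT vermis of mouse M3, against 0.736 to 0.739%. The choroid plexus genes of the WT hippocampus of mouse F3 had a mean level of 0.65 log2 CPM, against 3.99 to 4.55 in the others.

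The knockout effect differed between the regions for 600 genes by the test of the difference itself (edgeR's quasi-likelihood test).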

How the results depend on the processing

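The region difference was called for 600 genes, for 943 by DESeq2 and for 268 without both WT mice M3 and F3, an alternative chosen after seeing the data. Leaving out 1 mouse gave 374 (KO F3) to 623 genes, and the other alternatives 426 to 821. Without the mouse as a replicate block 728 genes were called. In the hippocampus the 2 calls became 552 without a filter on low counts, 80 by DESeq2 and 1 without both WT mice, with 2 to 12 when 1 mouse was left out. In the vermis the 1274 calls became 2269 without the filter and 626 without both WT mice, with 796 to 1586 when 1 mouse was left out (796 without WT M3, 804 without KO M3, 809 without KO F3, 838 without KO F1, 844 without WT M1). The shared effect, called for 1 gene, reached 4 with relative log expression size factors, 18 with scaling within each region, 12 without the filter, 22 with the replicate block, 50 with voom and 2 without both WT mice, and ran from 1 to 17 when 1 mouse was left out (17 without KO M1, 5 without KO F1). Requiring it in each region as well gave 1 gene, then 4 with scaling within each region, 2 without the filter, 2 with the replicate block and 10 with voom, with 1 to 6 when 1 mouse was left out. The 299 opposite genes became 83 without both WT mice and ranged from 159 to 417 when 1 mouse was left out. The cause of these changes was not tested.

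The median region difference of the 13 mitochondrially encoded messages changed sign with the offset for length, from 0.22 to -0.013. Of the 18 named genes called above 0, all 18 were called under each alternative run on them (19 for Bc1 and 20 for the others). Each of the 15 called below 0 lost its call under 1 to 14. WT and KO mice share a label (M1 and so on) without sharing an animal, and deviations of same-labelled mice correlated by 0.099 to 0.471 in the hippocampus and 0.285 to 0.470 in the vermis. With the replicate block the vermis had 1218 calls and the hippocampus 2. With 4 mice a group, exact tests of a single value cannot go below p = 0.0286.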
